A study of Rattus norvegicus with 24 samples.

Results

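The RT1 genes are the rat's major histocompatibility complex (MHC) genes. They were taken here as every row whose gene name starts with RT1-, which gave 29 of the 23950 rows measured in the P14 nucleus accumbens (NAc). Of the 29, 20 were class I and 9 were class II genes, and all 29 were above 0 FPKM in at least 1 of the 24 libraries. FPKM is the fragment count scaled to transcript length and library size, so levels can be compared between genes per length.

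A class I molecule is a heavy chain held by beta-2-microglobulin (B2m), and it shows peptides made inside the cell to T cells. The peptides reach it through the Tap1 and Tap2 transporter. A class II molecule shows peptides taken up from outside, mainly on microglia, macrophages and B cells, with Cd74 holding the groove closed until RT1-DM loads a peptide and RT1-DO restrains that step. Nlrc5 drives transcription of the class I genes and Ciita that of the class II genes, and interferons raise both. In the uninflamed brain both classes are usually low. The numerous class I genes outside RT1-A are called nonclassical, and RT1-M3 presents bacterial formylated peptides.

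The pups were P14 Sprague Dawley rats, an outbred stock, with 4 pups in each of 6 groups. Which pups shared a litter is not given in the sources used here. In the F1 in utero group (F1 IUO) the F0 dams had been gavaged with oxycodone (oxy), rising from 10 to 15 mg/kg/day, before mating and then up to weaning. In the F1 postnatal group (F1 PNO) the dams had received 15 mg/kg/day only from parturition to weaning, and F1 SAL were saline controls. The F2 IUO, F2 PNO and F2 SAL pups were born to F1 females of each group that were themselves not dosed and had been mated with naive males. Pups of either sex were used, and neither sex, haplotype nor parents were taken into account here. The part of haplotype in any value below was not tested.

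The FPKM of a library added up to between 535866 and 766781, with 4782 to 7532 genes at 0. Read numbers are unknown, and counting errors therefore cannot be given. The 9 striatal projection neuron markers summed to between 421.95 and 1364.48 FPKM, and markers of thalamus, hypothalamus and cortex were present as well. Ttr, the transthyretin gene that marks choroid plexus, was between 973 and 12103 FPKM in 6 libraries and between 1.75 and 245 FPKM in the other 18. The 6 were replicates 3 and 4 of F1 IUO, replicate 3 of F1 PNO, replicate 1 of F1 SAL, replicate 1 of F2 IUO and replicate 4 of F2 PNO. Of the 9 microglia markers found, all had a mean of at least 1 FPKM, whereas Cd3e, Cd3g, Cd8a and Cd79b, markers of T and B cells, had means under 0.1 FPKM. Cd4, which T cells share with macrophages and microglia in the rat, was between 0.95 and 2.86 FPKM. In such bulk tissue, fewer cells of a type and less RNA per cell cannot be told apart.

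Most RT1 transcripts were low in FPKM in the NAc, and the higher ones were in the middle range of all genes. Of the 29 genes, 10 had a mean of at least 1 FPKM over the 24 libraries. Of the 29, 13 never reached 1 FPKM in any library, and 16 were listed at 0 in at least 1 library. The mean of RT1-CE5, the lowest of the 10 at 1.15 FPKM, was above that of 44.0% of all 23950 genes. For RT1-A2 this share was 56.2%, for RT1-DMa, the highest, 69.9%, and for RT1-M4, the lowest of the 29, 10.9%. All RT1 genes together summed to between 26.09 FPKM (F1 PNO) and 55.8 FPKM (F2 PNO, replicate 4), with a median of 34.2 FPKM. B2m, the partner chain of class I, was far above its heavy chains, at a median of 156 FPKM and a range from 119 to 216 FPKM. Tap1 had a median of 0.695 FPKM (0.36 to 1.44), and Nlrc5 a median of 0.05 FPKM with a highest value of 0.19.

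**Figure D1:**
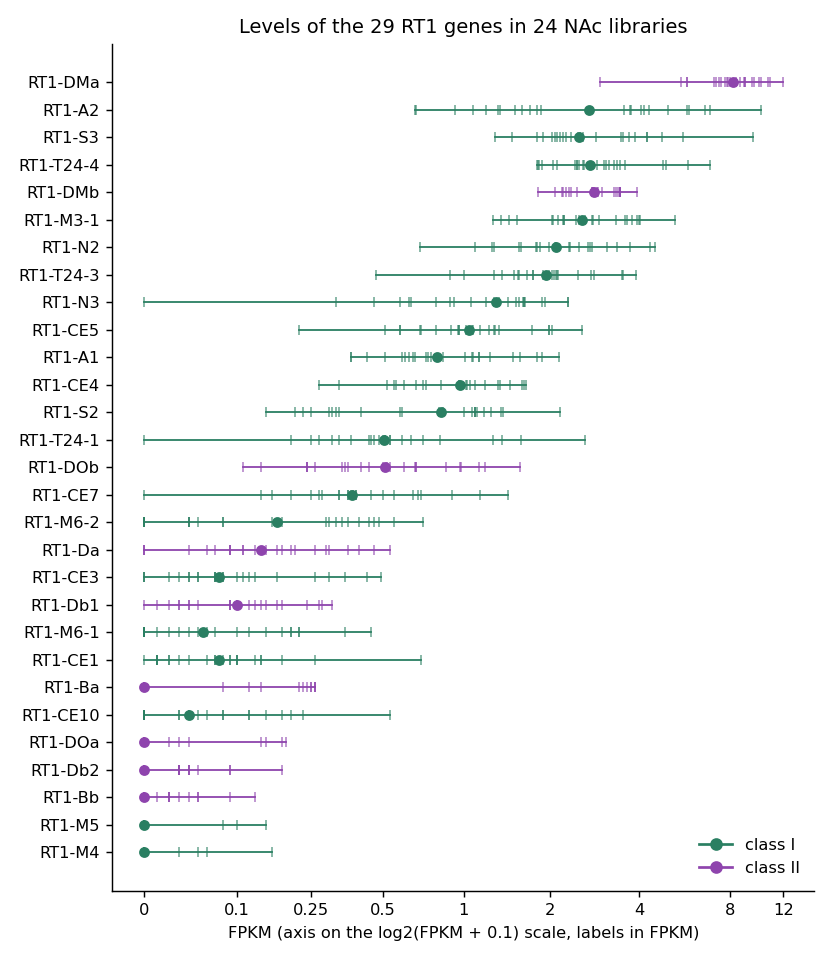
Levels of all 29 RT1 genes: each tick is 1 of the 24 libraries, each dot the median, each line the range from the lowest to the highest library, in FPKM on a log2(FPKM + 0.1) axis; green is class I and purple class II. RT1-DMa lies highest with a median of 8.17 FPKM, and the classical class II genes lie among the lowest.

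Among the class II genes, RT1-DMa and RT1-DMb, which encode the chains of the peptide loader DM, carried 91.3% of the summed class II mean. RT1-DMa had the highest mean of all 29 genes, 8.21 FPKM (2.96 to 11.93), and RT1-DMb had 2.85 FPKM (1.82 to 3.95). The 5 classical class II genes that form the presenting molecules, RT1-Ba, RT1-Bb, RT1-Da, RT1-Db1 and RT1-Db2, had means from 0.0192 to 0.179 FPKM and never exceeded 0.53 FPKM, and each was listed at 0 in at least 1 library. RT1-DOb was between 0.11 and 1.58 FPKM, and RT1-DOa, the other chain of DO, was listed at 0 in 17 of 24 libraries. The class II driver Ciita was listed at 0 in 15 libraries, while Cd74, the invariant chain, had a median of 2.31 FPKM (0.94 to 6.2).

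Among the class I genes, the classical RT1-A2 was the highest with a mean of 3.31 FPKM, followed by the nonclassical RT1-S3 (3.14 FPKM), RT1-T24-4 (3.12 FPKM) and RT1-M3-1 (2.76 FPKM). RT1-N2 (2.32 FPKM), RT1-T24-3 (2.01 FPKM), RT1-N3 (1.23 FPKM) and RT1-CE5 (1.15 FPKM) were the remaining class I genes with a mean of at least 1 FPKM. The spread of the libraries, which for RT1-A2 ran from 0.66 to 10.14 FPKM, was larger than the distance between the means of the first 4, so their order is a description only. RT1-A1, the other classical gene, had a mean of 0.977 FPKM (0.37 to 2.14). The remaining M genes were lower, with RT1-M4 and RT1-M5 listed at 0 in 20 and 21 libraries. Many class I genes are close copies of each other, and how shared reads were divided among them is not given in the sources used here, so the values of single class I genes are uncertain.

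The sequences before the start of 4 of these genes are shown because these genes have the highest mean of their class (RT1-A2, RT1-DMa) or the differences and relations described below (RT1-S3, RT1-CE5). RefSeq sequences on GRCr8 were at hand for 26 of the 29 genes, all on chromosome 20. The 250 bases before the annotated start lay at chr20:4872621-4872870 (+ strand) for RT1-A2, chr20:2675278-2675527 (+ strand) for RT1-S3, chr20:3484091-3484340 (- strand) for RT1-CE5 and chr20:4712336-4712585 (- strand) for RT1-DMa. They are written 5′ to 3′ in the direction of the gene, and capitals mark 3 motifs searched on both strands: the enhancer A motif GGGGATTCCCC known from class I promoters, the CCAAT box and the interferon-stimulated response element GAAANNGAAA.
RT1-A2: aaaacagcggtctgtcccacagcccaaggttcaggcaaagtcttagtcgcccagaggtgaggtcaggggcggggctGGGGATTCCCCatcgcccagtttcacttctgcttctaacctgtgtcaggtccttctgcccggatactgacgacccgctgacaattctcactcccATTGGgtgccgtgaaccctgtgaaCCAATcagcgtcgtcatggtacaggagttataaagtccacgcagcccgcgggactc
RT1-S3: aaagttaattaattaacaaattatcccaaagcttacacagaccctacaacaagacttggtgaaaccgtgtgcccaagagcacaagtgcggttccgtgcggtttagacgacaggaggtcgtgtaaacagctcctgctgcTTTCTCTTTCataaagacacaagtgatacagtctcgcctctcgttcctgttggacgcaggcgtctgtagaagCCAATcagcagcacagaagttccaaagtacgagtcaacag
RT1-CE5: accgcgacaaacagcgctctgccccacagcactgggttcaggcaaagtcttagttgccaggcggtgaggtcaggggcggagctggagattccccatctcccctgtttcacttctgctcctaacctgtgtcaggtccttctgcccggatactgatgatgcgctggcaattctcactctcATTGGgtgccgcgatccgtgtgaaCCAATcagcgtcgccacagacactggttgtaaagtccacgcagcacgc
RT1-DMa: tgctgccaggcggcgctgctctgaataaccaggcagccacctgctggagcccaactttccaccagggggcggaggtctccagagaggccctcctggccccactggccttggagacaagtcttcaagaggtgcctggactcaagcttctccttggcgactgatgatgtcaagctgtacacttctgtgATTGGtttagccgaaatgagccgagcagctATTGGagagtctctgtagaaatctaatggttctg
RT1-A2 held GGGGATTCCCC from position -174 to -164 before its start, RT1-S3 held the complement of GAAANNGAAA from -112 to -103, and RT1-CE5 and RT1-DMa held CCAAT or its complement 2 times each. Over all 33469 promoters of this length, GGGGATTCCCC occurred in 20 (0.0598%). It occurred in 4 of the 26 RT1 promoters (RT1-A1, RT1-A2, RT1-CE4 and RT1-CE10), all class I. CCAAT stood in 21 of the 26 RT1 promoters (80.8%), including all 8 class II promoters searched, against 34% of all promoters. GAAANNGAAA stood in 3 of 26 (RT1-S2, RT1-S3 and RT1-N3), against 3.41% of all promoters. Only exact matches were searched, so variants of a motif, such as ggagattcccc in RT1-CE5, were neither marked nor counted. A promoter without a match here may therefore still hold a variant of the element. The matches describe letters and were not tested for binding.

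No RT1 gene was switched on and off between libraries under a strict definition of at least 3 libraries at 0.1 FPKM or less and at least 3 at 1 FPKM or more. Of all genes with a library at 1 FPKM or more, 4.58% were split in this way, and 0 of the 16 RT1 genes with such a library were. Counting a gene as on from 0.5 FPKM left the count at 0 of 20, where 9.92% of all genes were split. RT1-N3 came closest by its lowest library, being listed at 0 in replicate 2 of F2 IUO while the other 23 libraries were at 0.32 FPKM or more. RT1-T24-1 was likewise listed at 0 in replicate 1 of F2 PNO alone, and RT1-CE7 in replicate 2 of F1 PNO alone. The 13 RT1 genes that never reached 1 FPKM could not be split under the strict definition. Among these, RT1-Ba was listed at 0 in 13 libraries and was between 0.08 and 0.26 FPKM in the other 11.

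RT1-A2 was the most variable by its SD among the 10 genes with a mean of at least 1 FPKM. Its highest library was 15.4-fold above its lowest, and its SD over libraries of 1.09 on the log2(FPKM + 0.1) scale was reached by only 6.47% of the 4419 genes whose mean was within 2-fold of its own. It also had an empty stretch in the middle: 12 libraries were at 1.86 FPKM or less and 12 at 3.57 FPKM or more, with no library between. All 4 F1 PNO libraries lay below that gap and all 4 F2 PNO libraries above it. F1 SAL had 1 library above it, F2 IUO had 3, and F1 IUO and F2 SAL had 2 each. The gap of RT1-A2, 0.905 on that log2 scale, was located from these same values. Among the 10 genes, RT1-CE5 (0.931) and RT1-N3 (2.07) had larger gaps, each with 1 library below. How many of all genes have a gap as wide was not counted. By group, RT1-A2 averaged, from lowest to highest, 1.12 ± 0.487 FPKM in F1 PNO, 1.97 ± 1.21 FPKM in F1 SAL, 2.94 ± 1.66 FPKM in F1 IUO, 3.21 ± 2.04 FPKM in F2 SAL, 4.78 ± 1.22 FPKM in F2 PNO and 5.86 ± 3.93 FPKM in F2 IUO (SD, n = 4 each). Each step in that order was smaller than the larger SD of its pair, and neighbours overlapped. RT1-DMb was the steadiest of the 10, at 2.17-fold between its lowest and highest library, and 86.0% of genes of like level had a larger or equal SD.

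No RT1 gene differed between any of the groups after adjustment over all genes. The limma test on log2(FPKM + 0.1), with Benjamini-Hochberg adjustment, gave 0 RT1 genes with an adjusted p under 0.05 in each of the 6 comparisons of exposures and the 3 comparisons of generations. Of all genes, 0.133% had one between F1 IUO and F1 PNO, 0.00576% between F2 PNO and F2 SAL, 0.0343% between F2 SAL and F1 SAL, 0.0288% between F2 PNO and F1 PNO, and 0% in the other 5. The moderated F test over the 6 groups also gave 0 of 25 RT1 genes tested (0.141% of all genes), with 6 of 25 under 0.05 unadjusted, where 16.6% of all genes were. Those 6 were RT1-S3, RT1-T24-1, RT1-DMa, RT1-N3, RT1-A2 and RT1-M3-1. The unadjusted values below are therefore descriptions of size and spread.

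The IUO and PNO groups were first compared with the saline group of their generation. At an unadjusted p under 0.05, 0 of 21 RT1 genes were counted between F1 IUO and F1 SAL (3.91% of all genes), 1 of 22 between F1 PNO and F1 SAL (13.9%), 0 of 18 for F2 IUO against F2 SAL (8.49%) and 1 of 22 for F2 PNO against F2 SAL (10.8%). In none of these 4 did an RT1 gene also reach a 2-fold ratio of mean FPKM, which 1.61%, 1.86%, 2.18% and 2.15% of all genes did. The 1 gene in F1 was RT1-M3-1, the formyl peptide presenter. RT1-M3-1 was at 3.35, 3.94, 2.93 and 4.03 FPKM in the F1 PNO libraries and at 2.52, 2.8, 2.13 and 2.23 FPKM in the F1 SAL libraries. The groups did not overlap, which was so for 8.27% of all genes there. The log2 fold change was 0.54 (SE 0.164, limma unadjusted p = 0.00916, adjusted p = 0.245), and the exact permutation test of 4 against 4 gave p = 0.0286, the smallest it allows. In the same comparison 5 of 6 thalamus markers were higher in F1 PNO at an unadjusted limma p under 0.05. Lower at that limit were 3 of 6 hypothalamus and 2 of 9 microglia markers (Csf1r and Cx3cr1). So were 1 of 9 striatal markers (Pdyn) and 1 of the 3 blood leukocyte markers tested (Ly6g6c). The part of these markers was not tested.

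The 1 gene in F2 was RT1-T24-3, a nonclassical class I gene. It was at 3.91, 2.03, 2.83 and 3.53 FPKM in the F2 PNO libraries and at 1.67, 1.75, 1.57 and 1.89 FPKM in the F2 SAL libraries. These groups did not overlap, as for 7.01% of all genes in that comparison. The difference of 0.77 on the log2 scale (SE 0.249, limma unadjusted p = 0.0127, adjusted p = 0.382) had an exact permutation p = 0.0286. Some cell type markers had an unadjusted limma p under 0.05 there. Lower in F2 PNO were 2 of 9 for microglia (Tmem119 and Cx3cr1) and 1 of 5 for cortex (Cux2). Higher were 1 of 6 for hypothalamus (Pmch) and 2 of 4 rows for erythroid cells, both of the symbol Hba-a2. The part of these markers was not tested.

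**Figure D2:**
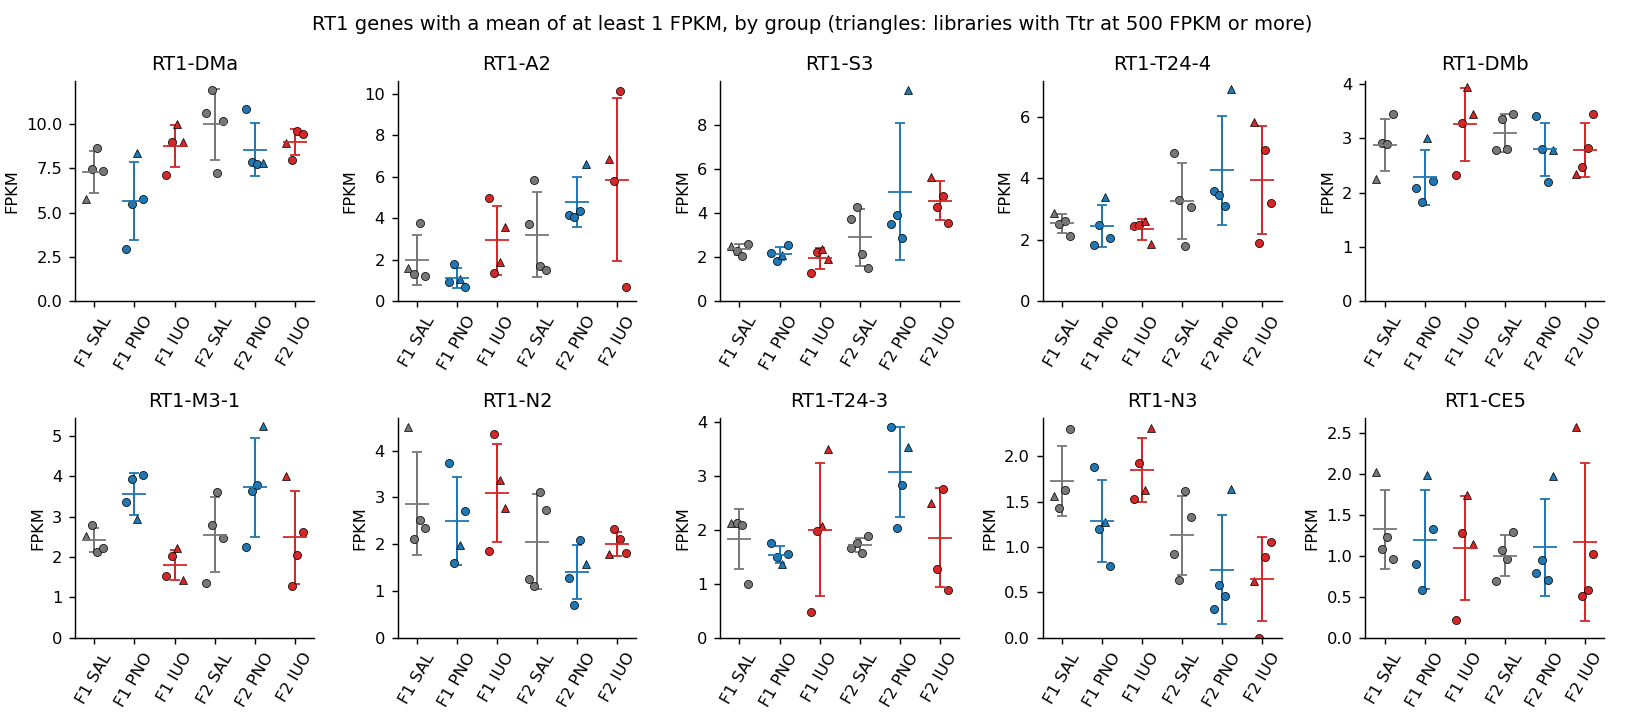
The 10 RT1 genes with a mean of at least 1 FPKM, in FPKM on axes that start at 0, by group: points are single libraries, horizontal bars with whiskers the mean and SD of 4, and triangles the 6 libraries with high Ttr. RT1-A2 is at 1.8 FPKM or less in all F1 PNO libraries and at 4.05 FPKM or more in all F2 PNO libraries.

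Among the comparisons of exposures, the count of RT1 genes was highest for F1 IUO against F1 PNO. There, 5 of 21 RT1 genes had an unadjusted p under 0.05 (16.5% of all genes), and 3 of 21 also reached a 2-fold ratio of mean FPKM (2.95% of all genes). The 3 were RT1-S2, RT1-A2 and RT1-T24-1, each with the higher mean in F1 IUO, a direction in which 1.45% of all genes passed both limits. Without replicate 4 of F1 IUO or of F1 PNO the 3 became 1, and without replicate 3 of F1 PNO they became 5. RT1-S2, a nonclassical class I gene, was at 1.18, 1.0, 1.1 and 1.1 FPKM in F1 IUO and at 0.81, 0.15, 0.31 and 0.23 FPKM in F1 PNO, with no overlap, as for 10.5% of all genes. The log2 difference came to 1.51 (SE 0.405, limma unadjusted p = 0.0043, adjusted p = 0.14, exact permutation p = 0.0286).

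RT1-A2 was at 4.98, 1.34, 1.86 and 3.57 FPKM in F1 IUO and at 0.93, 1.8, 1.08 and 0.66 FPKM in F1 PNO. The groups overlapped in the range from 1.34 to 1.8 FPKM. Its log2 fold change of 1.23 (SE 0.433) had an unadjusted limma p of 0.0188 and an adjusted p of 0.215, and the exact permutation p was 0.0571. RT1-T24-1 averaged 1.51 ± 0.899 FPKM in F1 IUO against 0.54 ± 0.195 FPKM in F1 PNO (SD, n = 4 each), with the exact permutation p at 0.114. Without the high-Ttr libraries, which left 2 F1 IUO against 3 F1 PNO libraries, RT1-T24-1 had a log2 fold change of 0.59 (limma unadjusted p = 0.349) and RT1-A2 one of 1.24 (limma unadjusted p = 0.088).

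RT1-M3-1 went the other way. It averaged 1.81 ± 0.377 FPKM in F1 IUO against 3.56 ± 0.518 FPKM in F1 PNO (SD, n = 4 each), with all 4 F1 IUO libraries at 2.22 FPKM or less. The log2 fold change was -0.95 (SE 0.206, limma unadjusted p = 0.00112, adjusted p = 0.106, exact permutation p = 0.0286). The fifth gene, RT1-DMa, was at 7.11, 8.98, 10.01 and 8.98 FPKM in F1 IUO and at 2.96, 5.51, 8.36 and 5.78 FPKM in F1 PNO. The log2 difference for RT1-DMa was 0.70 (SE 0.277, limma unadjusted p = 0.0304, adjusted p = 0.251, exact permutation p = 0.0571), and the groups overlapped.

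Cell type markers moved with this comparison. The summed microglia markers were between 186 and 226 FPKM in F1 IUO and between 141 and 177 FPKM in F1 PNO, and 4 of 9 were higher in F1 IUO at an unadjusted p under 0.05. The summed hypothalamus markers were between 43.77 and 158 FPKM in F1 IUO and between 3.99 and 12.7 FPKM in F1 PNO, with 5 of 6 higher in F1 IUO. Of the striatal projection neuron markers 6 of 9 were higher in F1 IUO, and 4 of 6 thalamus markers were lower. Their part in the RT1 values was not tested.

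**Figure D3:**
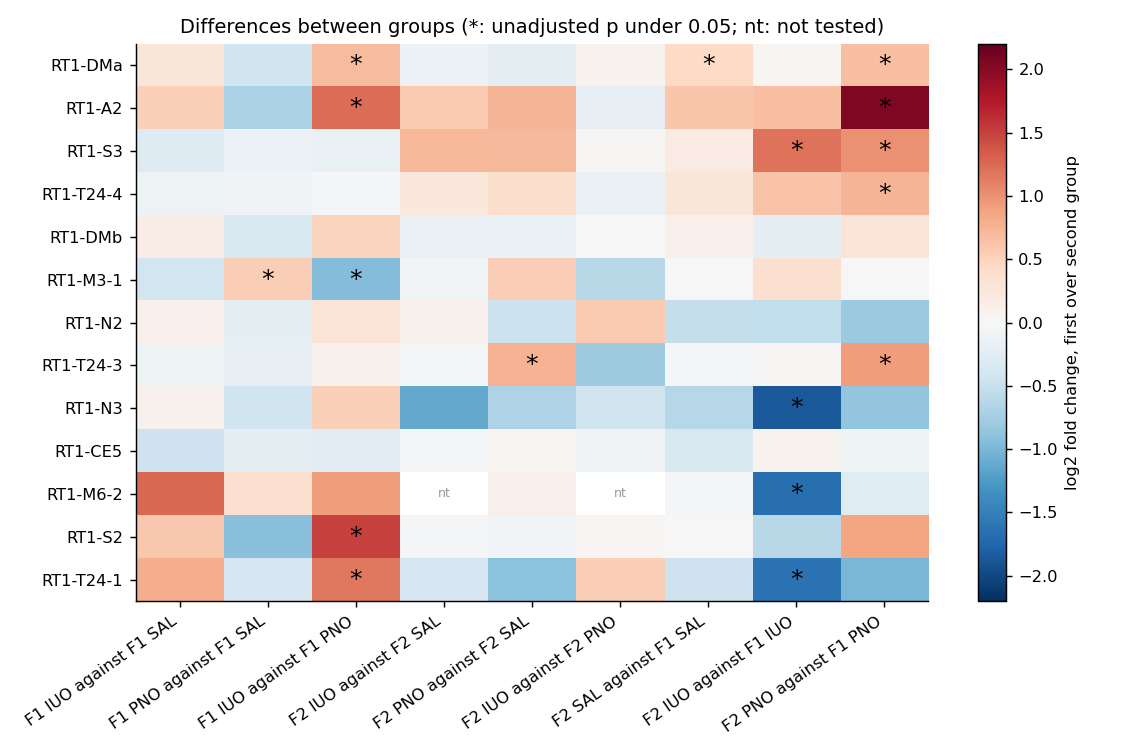
Log2 fold changes (colour; first over second group) of 13 RT1 genes in the 9 comparisons; stars mark an unadjusted limma p under 0.05 and "nt" genes below the filter. The largest value is that of RT1-A2 between F2 PNO and F1 PNO, 2.05, and no value has an adjusted p under 0.05.

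Between F2 IUO and F2 PNO, 0 of 18 RT1 genes had an unadjusted p under 0.05, where 7.07% of all genes did, and 0 also reached a 2-fold ratio (1.8% of all genes). In F1 IUO against F1 SAL, F2 IUO against F2 SAL, F2 IUO against F2 PNO and F2 SAL against F1 SAL, 0 RT1 genes had groups that did not overlap, where 2.54%, 5.11%, 4.74% and 4.98% of all genes had.

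F1 pups were born to F0 dams and F2 pups to F1 females mated with naive males. Generation and family therefore cannot be told apart in the comparisons of F2 with F1. Between the generations, the widest separation was that of RT1-A2 in the PNO lineage. It was at 4.14, 4.05, 4.33 and 6.6 FPKM in F2 PNO and at 0.93, 1.8, 1.08 and 0.66 FPKM in F1 PNO, a ratio of means of 4.28. The groups did not overlap, as for 3.34% of all genes there. The log2 fold change was 2.05 (SE 0.314, limma unadjusted p = 9.57e-05, adjusted p = 0.208), and the exact permutation test gave p = 0.0286. In this comparison 5 of 21 RT1 genes had an unadjusted p under 0.05 (4.76% of all genes), all with the higher mean in F2, as for 2.13% of all genes. RT1-A2 and RT1-S3 also had a ratio of means above 2 (2.01% of all genes passed both limits), and without replicate 3 of F2 PNO 5 RT1 genes did. Some cell type markers had an unadjusted limma p under 0.05 as well. Higher in F2 PNO were 4 of 9 striatal, 2 of 9 microglia (C1qb and Csf1r) and 1 of 6 hypothalamus markers (Pmch). Lower were 1 microglia marker (Tmem119) and 2 of 6 thalamus markers. The part of these markers was not tested.

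The other 4 were RT1-S3, RT1-T24-3, RT1-T24-4 and RT1-DMa. RT1-S3 was at 3.48, 3.89, 2.87 and 9.56 FPKM in F2 PNO and at 2.17, 1.81, 2.08 and 2.54 FPKM in F1 PNO, so that the groups did not overlap and replicate 4 of F2 PNO stood far above the rest. The log2 fold change of RT1-S3 was 1.01 (SE 0.354, limma unadjusted p = 0.0185, adjusted p = 0.948), and 0.64 without that library (limma unadjusted p = 0.0192). RT1-T24-3 had a mean of 3.08 ± 0.828 FPKM (SD, n = 4) in F2 PNO and 1.54 ± 0.161 FPKM (SD, n = 4) in F1 PNO, without overlap. RT1-T24-4 overlapped, at 4.26 ± 1.77 FPKM (SD, n = 4) against 2.43 ± 0.684 FPKM (SD, n = 4), and its limma p was 0.0858 without replicate 4 of F2 PNO. RT1-DMa overlapped as well, at 8.56 ± 1.52 FPKM (SD, n = 4) against 5.65 ± 2.21 FPKM (SD, n = 4), and its unadjusted limma p was under 0.05 in 7 of 16 alternatives.

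In the IUO lineage, 4 of 19 RT1 genes had an unadjusted p under 0.05 (15% of all genes), 1 with the higher mean in F2 (5.35% of all genes) and 3 with the lower (9.65%). All 4 also reached a 2-fold ratio of mean FPKM (3.32% of all genes), but only 2 did without replicate 4 of F1 IUO and 1 without the high-Ttr libraries. Cell type markers also had an unadjusted limma p under 0.05 in this comparison. Lower in F2 IUO were 4 of 9 striatal, 2 of 3 endothelium, 1 of 9 microglia (P2ry12) and 1 of 6 thalamus markers (Rora). Of the cortex markers, 1 of 5 (Neurod6) was higher, at 23.4 against 13.7 FPKM. The part of these markers was not tested. RT1-S3 was at 5.62, 4.24, 4.78 and 3.54 FPKM in F2 IUO and at 1.29, 2.22, 2.36 and 1.9 FPKM in F1 IUO, with no overlap, as for 10.7% of all genes. For RT1-S3 the log2 fold change was 1.20 (SE 0.263, limma unadjusted p = 0.00107, adjusted p = 0.221, exact permutation p = 0.0286). RT1-N3, a nonclassical class I gene, was at 0.63, 0, 0.89 and 1.06 FPKM in F2 IUO and at 1.53, 1.93, 1.63 and 2.31 FPKM in F1 IUO, again without overlap. For RT1-N3 it was -1.84 (SE 0.707, limma unadjusted p = 0.0265, adjusted p = 0.275), and -1.03 without the library listed at 0, replicate 2 of F2 IUO. RT1-T24-1 and RT1-M6-2 also had lower means in F2 IUO, at 0.375 and 0.105 FPKM, than in F1 IUO, at 1.51 and 0.475 FPKM. The groups overlapped for both, with F2 IUO reaching 0.59 and 0.34 FPKM and F1 IUO starting at 0.45 and 0.16 FPKM. The exact permutation p was 0.0571 for each, and RT1-M6-2 lay near 0 FPKM.

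In the saline lineage, 1 of 20 RT1 genes had an unadjusted p under 0.05 (8.48% of all genes), and 0 also reached a 2-fold ratio (1.45%). RT1-DMa was at 10.65, 11.93, 7.21 and 10.17 FPKM in F2 SAL and at 5.78, 7.46, 8.67 and 7.34 FPKM in F1 SAL. The groups overlapped, and its log2 fold change of 0.44 (SE 0.180) had an unadjusted limma p of 0.0373 and an adjusted p of 0.585. The unadjusted p was under 0.05 in 5 of 16 alternatives. The mean of RT1-A2 was 3.21 ± 2.04 FPKM (SD, n = 4) in F2 SAL and 1.97 ± 1.21 FPKM (SD, n = 4) in F1 SAL.

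Other RT1 genes of like level had no unadjusted p under 0.05 in any of the 9 comparisons. For RT1-DMb, the second DM chain, the group means lay between 2.28 ± 0.513 FPKM in F1 PNO and 3.26 ± 0.679 FPKM in F1 IUO (SD, n = 4 each), the same lowest group as for RT1-DMa. Between these groups RT1-DMb had a log2 fold change of 0.50 (SE 0.226, limma unadjusted p = 0.0545, adjusted p = 0.314). RT1-N2 had group means from 2.5 to 3.09 FPKM in F1 and from 1.41 to 2.05 FPKM in F2. The F2 mean was the lower one in all 3 lineages, with log2 fold changes of -0.53 for SAL, -0.54 for IUO and -0.81 for PNO, and limma unadjusted p from 0.0594 to 0.188. RT1-CE5 had group means from 1.0 to 1.33 FPKM, a narrower range than the SD within any group but F2 SAL. RT1-A1, the second classical class I gene, had its highest mean in F1 IUO, 1.4 ± 0.521 FPKM, and its lowest in F2 PNO, 0.813 ± 0.293 FPKM (SD, n = 4 each), so that it did not share the order of RT1-A2.

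Whether an exposure acted differently in the generations was tested as an interaction, and 0 RT1 genes had an adjusted p under 0.05. Unadjusted, 1 of 23 was under 0.05 for IUO against SAL (RT1-S3; 5.15% of all genes), 2 of 24 for PNO against SAL (RT1-A2 and RT1-T24-3; 4.06%) and 0 of 24 for IUO against PNO (5.76%). The smallest adjusted p among these RT1 genes was 0.915.

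The genes that work with the RT1 products were tested in the same way. Of the 15 class I processing genes and the 9 class II processing genes, 0 passed the rule of an unadjusted p under 0.05 with a 2-fold ratio in any of the 9 comparisons, and 0 of the genes tested had an adjusted p under 0.05. Their median log2 fold changes in the 6 comparisons of exposures ran from -0.16 to 0.16 and from -0.15 to 0.05. Among exposures, 2 of 85 tests of class I and 1 of 48 tests of class II processing genes had an unadjusted limma p under 0.05. For all genes that share ran from 3.91% to 16.5%. B2m was at 134 FPKM in F1 IUO and 157 FPKM in F1 PNO, a log2 fold change of -0.23 (SE 0.102, limma unadjusted p = 0.0456), while RT1-A2 had its higher mean in F1 IUO. Calr, the other class I processing gene, was at 354 FPKM in F2 PNO and 286 FPKM in F2 SAL (limma unadjusted p = 0.0487). Ctss, a protease that trims Cd74, was at 12.93 FPKM in F2 IUO and 18.32 FPKM in F2 SAL (limma unadjusted p = 0.0381).

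For the 25 interferon response genes, 3 of 140 tests passed the rule among exposures, where 1.61% to 2.95% of all genes did, and 0 had an adjusted p under 0.05. Ddx58, the RNA sensor RIG-I, averaged 0.135 ± 0.139 FPKM in F2 IUO against 0.693 ± 0.226 FPKM in F2 SAL and 0.713 ± 0.418 FPKM in F2 PNO (SD, n = 4 each). Ifi44 was at 1.76 ± 0.691 FPKM (SD, n = 4) in F2 PNO against 0.83 ± 0.301 FPKM (SD, n = 4) in F2 SAL. Between generations, Oas1a passed in the IUO lineage and Usp18 in the PNO lineage, both with the higher mean in F2. For the 43 other genes of the MHC region, 2 of 226 tests passed against the same background. Both were of the cytokine gene Ltb, with lower means in PNO than in SAL in F1 (0.302 against 0.627 FPKM) and in F2 (0.515 against 1.21 FPKM).

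Across the 24 libraries, 9 relations were computed between the highest class I and class II genes and their partners. RT1-DMa and Aif1, the microglia gene for IBA1 that itself lies in the MHC region, had r = 0.532 (permutation p = 0.00501, adjusted p = 0.0451) and rho = 0.591 (permutation p = 0.00254, adjusted p = 0.0229). Without the 2 libraries farthest from the median of RT1-DMa r was 0.507, with every library taken relative to its group mean 0.566, and in the 18 libraries without high Ttr 0.482. Cx3cr1, another microglia gene, gave r = 0.163 with RT1-DMa (permutation p = 0.452). Cd74 gave r = 0.156 (permutation p = 0.463) and Ciita, mostly at 0, r = 0.103 (permutation p = 0.629). For RT1-A2, r was 0.439 with Tap1 (permutation p = 0.0319, adjusted p = 0.144), 0.316 with Irf7, 0.0977 with B2m and -0.142 with Nlrc5, with adjusted p from 0.393 to 0.649 for the last 3.

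Pairs of the 10 higher RT1 genes were examined after the data had been seen, 45 in all. RT1-DMa and RT1-DMb, the chains of 1 molecule, were related at r = 0.705 and rho = 0.689 (permutation p = 8e-05 and 0.00031, adjusted p = 0.00202 and 0.0139), with r = 0.654 without the 2 farthest libraries. RT1-S3 and RT1-T24-4, which lie next to each other in the order of the 26 promoters on chromosome 20, had r = 0.713 and rho = 0.607 (permutation p = 9e-05 and 0.00208, adjusted p = 0.00202 and 0.0275). That r was 0.491 without the 2 farthest libraries. RT1-N2 and RT1-T24-4 had rho = -0.649 (permutation p = 0.00078, adjusted p = 0.0176) but r = -0.509 (permutation p = 0.0114, adjusted p = 0.102). RT1-N2 and RT1-N3 had rho = 0.600 (permutation p = 0.00244, adjusted p = 0.0275) and r = 0.394 (permutation p = 0.0603, adjusted p = 0.181). With every library taken relative to its group mean, r was 0.613 for RT1-DMa and RT1-DMb and 0.527 for RT1-S3 and RT1-T24-4. In the same way it was -0.273 for RT1-N2 and RT1-T24-4 and 0.120 for RT1-N2 and RT1-N3. The permutations ran over all 24 libraries, so differences between groups enter the p-values of these pairs.

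**Figure D4:**
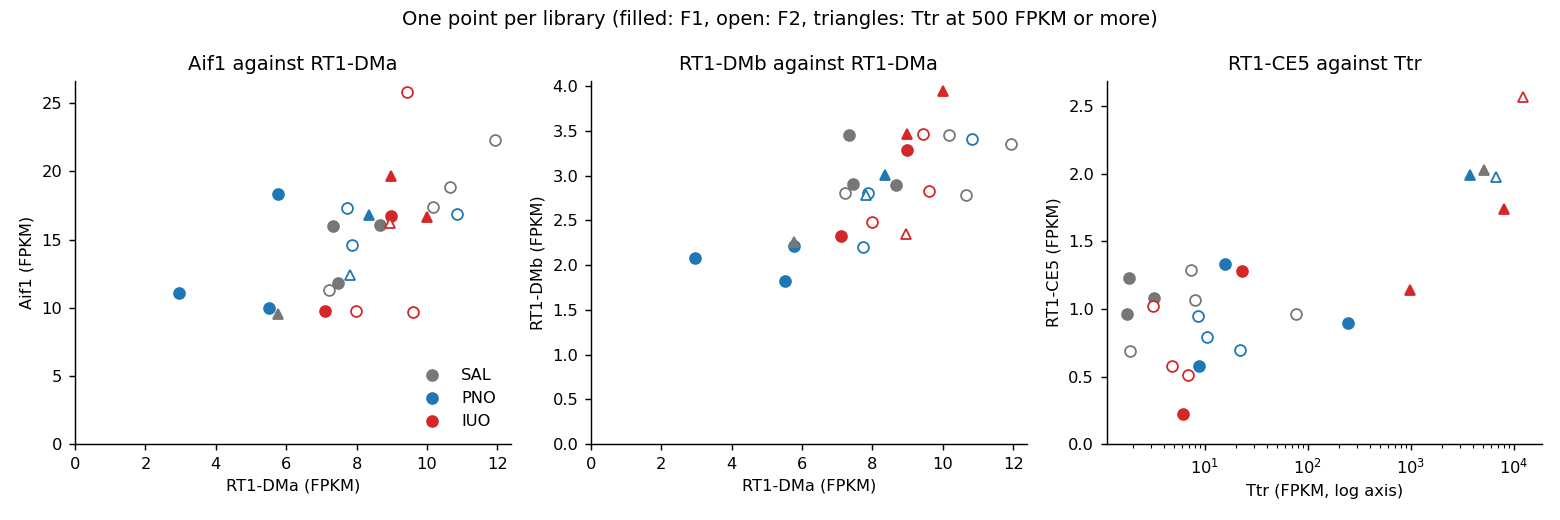
Levels in FPKM, 1 point per library: Aif1 against RT1-DMa, RT1-DMb against RT1-DMa, and RT1-CE5 against Ttr on a log axis (filled points F1, open points F2, triangles the 6 high-Ttr libraries). RT1-CE5 is at 1.14 FPKM or more in all 6 triangles and at 1.33 FPKM or less in the other 18 libraries.

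RT1-CE5 moved with choroid plexus markers. This class I gene of the C/E group had a median of 1.99 FPKM (1.14 to 2.57) in the 6 high-Ttr libraries and of 0.955 FPKM (0.22 to 1.33) in the other 18. With the groups as terms, its slope on the mean of the 8 choroid plexus markers was 0.25 on the log2 scale per log2 unit (SE 0.0496, limma adjusted p = 0.00873). It was 1 of 25 RT1 genes with an adjusted p under 0.05, where 1.89% of all genes had one. Without replicate 1 of F2 IUO the slope was 0.22 (adjusted p = 0.0731), and among the 18 libraries without high Ttr it was 0.09 (SE 0.260, limma unadjusted p = 0.743). Its neighbour RT1-CE4 had a median of 1.33 FPKM (1.03 to 1.63) in the high-Ttr libraries and of 0.78 FPKM (0.27 to 1.66) in the rest, with a slope of 0.15 (SE 0.0512, limma adjusted p = 0.155). RT1-A1 had medians of 1.69 and 0.735 FPKM in the same 2 sets of libraries, and RT1-S2 of 1.1 and 0.585 FPKM. The medians of RT1-A2 were close, at 2.71 FPKM in the 6 high-Ttr libraries and 2.77 FPKM in the other 18, as were those of RT1-S3, at 2.43 and 2.57 FPKM. At an unadjusted limma p under 0.05, positive slopes were also found for RT1-CE4, RT1-CE3, RT1-CE1, RT1-Da, RT1-T24-4, RT1-S3 and RT1-T24-3, and no negative ones. Their adjusted p ran from 0.155 to 0.298. The share of all genes under 0.05 unadjusted was not counted, in either direction. These slopes therefore say nothing about the RT1 genes as a set. The slopes of RT1-T24-4, RT1-S3 and RT1-T24-3 were 0.10, 0.091 and 0.12. Of the 10 RT1 genes with a mean of at least 1 FPKM, 8 had the higher median in the high-Ttr libraries, and RT1-A2 and RT1-S3 did not. How many of all genes had the higher median there was not counted, so the 8 cannot be set against a background.

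Against the microglia markers, 0 of 25 RT1 genes had a slope with an adjusted p under 0.05, nor did any of the 19134 genes tested (0%). RT1-DMb had a slope of 1.02 (SE 0.328, limma unadjusted p = 0.00527, adjusted p = 0.528) and RT1-DMa of 0.88 (SE 0.392, unadjusted p = 0.0355). RT1-A2 had the opposite sign, -2.79 (SE 1.03, unadjusted p = 0.0134), and RT1-A1 had 2.07 (SE 0.790, unadjusted p = 0.0159). No other RT1 gene had an unadjusted limma p under 0.05 for this slope. The share of all genes at that limit was not counted, so these slopes are a description only.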

How the data were processed

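RNA-Seq of P14 NAc was available for 24 pups, 4 in each of 6 groups taken from the labels. Per the labels, HISAT2, StringTie, SAMtools and edgeR were named by the submitters, without versions, and the genome build is not given in the sources used here. The values that the authors deposited are FPKM per gene, with 2 decimals, computed by StringTie on a transcriptome merged over all samples. Reads per library are unknown, and since FPKM values are not counts, the count test of the study was not run.

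RT1 genes and gene lists were chosen with earlier results of these data known. Values were tested as log2(FPKM + 0.1) with limma 3.58.1 in R 4.3.3 (eBayes with a trend), two-sided, over all genes with at least 0.1 FPKM in 4 or more of the libraries compared, with Benjamini-Hochberg adjustment over all genes tested. Fold changes on this scale understate those of low genes. A second rule, an unadjusted p under 0.05 with a 2-fold ratio of mean FPKM, was counted beside it, and is stricter in its fold than the one in the study's methods. Genes past either rule, split among libraries, or with a mean of at least 1 FPKM, were named, and other RT1 genes were named after their values were seen. Single genes were tested by exact permutation of 4 against 4 (70 assignments, two-sided). Correlations used 100000 permutations. Python 3.11.15, pandas 2.3.3, numpy 2.4.6, scipy 1.17.1 and matplotlib 3.10.9 served for tables and figures, and the fit was tested on simulated data.

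Alternatives were a pseudocount of 1, no filter, a filter of 1 FPKM, rescaling by upper quartile, a joint fit of all 24 libraries, a replicate block and leaving out each library. A choroid plexus covariate, leaving out the 6 libraries with Ttr at 500 FPKM or more, the recounts of the second rule between generations, the slopes on markers and the pairs of RT1 genes were added after seeing the data. P-values measure the spread between pups, whose litters are not given in the sources used here. One of the 9 relations and 1 marker gene are not reported here.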

Additional observations from a re-analysis of the deposited data

Results flagged for a closer look

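In 78 groups of 4 libraries (13 RT1 genes in 6 groups), 6 had 1 library whose gap to the nearest of the others took more of the range of the group than Dixon's critical value allows. Chance flags about 1 in 20 groups, which is 3.9 of 78.

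Replicate 4 of F2 PNO, one of the high-Ttr libraries, accounted for 3 of the 6. It stood at 6.6 FPKM for RT1-A2 where the next library was at 4.33 FPKM (0.890 of the range), at 9.56 FPKM for RT1-S3 where the next was at 3.89 FPKM (0.848 of the range) and at 6.9 FPKM for RT1-T24-4 where the next was at 3.59 FPKM (0.871 of the range). This library also had the highest summed RT1 level, 55.8 FPKM. In the same group, replicate 1 was at 10.84 FPKM for RT1-DMa, with the other 3 between 7.74 and 7.86 FPKM (0.961 of the range).

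In F1 SAL, replicate 3 was at 3.77 FPKM for RT1-A2, with the other 3 between 1.2 and 1.6 FPKM (0.844 of the range). Replicate 4 of F1 SAL was at 1.0 FPKM for RT1-T24-3, with the other 3 between 2.09 and 2.13 FPKM (0.965 of the range).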

How the results depend on the processing

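The count of RT1 genes with an adjusted p under 0.05 was 0 in all 247 recounts of the 13 comparisons of groups. None of the 17 RT1 differences with an unadjusted p under 0.05, nor the RT1-CE5 slope, turned its sign, and the other differences named were not recomputed. The split count was 0 under every alternative.

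For the rule of an unadjusted p under 0.05 with a 2-fold ratio, the count moved from 0 to 1 in 4 settings: with the replicate block for F1 IUO against F1 SAL and for F1 PNO against F1 SAL, without a filter for F2 IUO against F2 PNO, and without the high-Ttr libraries for F2 PNO against F2 SAL. Leaving out 1 library gave 0 to 1 for F1 IUO, F1 PNO, F2 IUO and F2 PNO against their saline groups (1 without replicate 1 or 2 of F1 IUO or replicate 3 or 4 of F1 SAL, replicate 1 or 2 of F1 PNO, replicate 4 of F2 IUO, and replicate 4 of F2 PNO or replicate 2 of F2 SAL, respectively), and 1 to 5 for F1 IUO against F1 PNO (1 without replicate 4 of either group, 5 without replicate 3 of F1 PNO, 3 with all libraries). Between generations, the count of 4 for F2 IUO against F1 IUO was 2 with the filter of 1 FPKM, 1 without the high-Ttr libraries and 2 to 5 with 1 library left out (2 without replicate 4 of F1 IUO). The count of 2 for F2 PNO against F1 PNO was 2 to 5 (5 without replicate 3 of F2 PNO), and that of 0 for F2 SAL against F1 SAL remained 0. The RT1 genes whose slope on choroid plexus markers had an adjusted p under 0.05 numbered 1 with all libraries, 0 without the high-Ttr libraries and 0 to 1 with 1 library left out (0 without replicate 1 of F2 IUO). The cause of these moves was not tested.

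Unadjusted p remained under 0.05 in all 16 alternatives for RT1-A2, RT1-S3 and RT1-T24-3 between F2 PNO and F1 PNO, for RT1-S3 between F2 IUO and F1 IUO, and for RT1-M3-1 and RT1-S2 between F1 IUO and F1 PNO. It did so in 11 of 16 for RT1-A2 and for RT1-DMa between F1 IUO and F1 PNO, in 7 of 15 for RT1-T24-1 there, in 5 of 16 for RT1-DMa between F2 SAL and F1 SAL, in 7 of 16 for RT1-DMa and 11 of 16 for RT1-T24-4 between F2 PNO and F1 PNO, and in 9 of 14 for RT1-M6-2, 13 of 16 for RT1-N3 and 14 of 15 for RT1-T24-1 between F2 IUO and F1 IUO. For RT1-M3-1 and RT1-T24-3 in PNO against SAL it was 15 of 16. Same-numbered libraries share only a number: over 36 pairings the correlation of their deviations ran from -0.227 to 0.110, and the replicate block gave 0 adjusted calls as well. The unknown depth limits what can be said of genes near 0 FPKM.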
